A study of Homo sapiens with 6 samples.

Results

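The 10 genes described here are long noncoding RNA genes that carry small nucleolar RNAs (snoRNAs) in their introns: GAS5, SNHG1, SNHG5, SNHG6, SNHG7, SNHG8, SNHG12, SNHG15, SNHG16 and SNHG29. They were chosen by gene symbol, with earlier results of these data known, and each matched a single row among the 60623 rows of the deposited table. RNA was measured in LX2 cells, an immortalised human line derived from hepatic stellate cells, which lay down collagen in injured liver. An siRNA against SHMT2 (siSHMT2, 3 libraries) was compared with a control siRNA (siNC, 3 libraries), both 36 h after transfection of cells labelled wild type and kept in low serum. SHMT2 is the mitochondrial serine hydroxymethyltransferase of one-carbon metabolism. The series asks how its depletion changes gene expression in these cells. All libraries come from 1 cell line, the siRNA sequences are not given in the sources used here, and the labels do not say whether replicates were separate cultures. The p-values therefore measure the spread between these libraries, which may be technical.

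snoRNAs are guides that direct chemical modification of ribosomal RNA: those of the C/D box class guide methylation of the ribose, and those of the H/ACA box class guide conversion of uridine to pseudouridine. In the noncoding host genes the snoRNAs are cut from the spliced-out introns, while the joined exons form an RNA that encodes no known functional protein. Many of these spliced RNAs begin with a terminal oligopyrimidine (TOP) tract, a C followed by further C or T bases, which ties them to the growth-regulated class of ribosomal protein mRNAs. Several, GAS5 first among them, are engaged by ribosomes and then removed by nonsense-mediated decay. Their level is therefore set by transcription and by translation-coupled decay together.

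The annotated 5′ ends were searched for a TOP start. For each gene the first 30 bases of a GENCODE release 29 (GRCh38) transcript are given. That transcript was chosen among starts with a C and at least 4 further pyrimidines, so the tract was a condition of the choice. Among these, the start shared by the largest number of transcripts was taken. Such a start was annotated for 6 of 29 transcripts of GAS5, 2 of 8 of SNHG16, 6 of 30 of SNHG29 and 3 of 23 of SNHG5. The counts were 1 of 5 for SNHG8, 4 of 17 for SNHG12, 1 of 25 for SNHG1 and 3 of 5 for SNHG6. SNHG7 and SNHG15 have no such start, so their entries are the starts with the longest pyrimidine run after an opening C. SNHG6 is counted but not shown. Capitals mark that C and the C and T bases that follow it.
GAS5: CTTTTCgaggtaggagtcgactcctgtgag
SNHG16: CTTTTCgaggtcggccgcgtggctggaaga
SNHG29: CTTTTCattcccgttgttatggagggccac
SNHG5: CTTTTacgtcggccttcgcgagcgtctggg
SNHG8: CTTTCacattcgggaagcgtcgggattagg
SNHG12: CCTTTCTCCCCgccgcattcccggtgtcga
SNHG1: CTCCTgtctgcaggatttacgcgcacgttg
SNHG7: CTCTgcgtgcgccggaggctgccgtggcgg
SNHG15: CCgccatcctgggccccacgtgttgcctga
GAS5 and SNHG16, on chromosomes 1 and 17, share their first 11 bases, CTTTTCGAGGT. A start of this kind was annotated for 8 of the 10 host genes (80%), against 16.5% of the 10831 tested genes found in the annotation and 6.97% of its 674 tested lncRNA genes. The host genes have more annotated transcripts, which gives them more chances to hold one. They have 15.6 per gene, against 8.54 over all tested genes and 2.67 over tested lncRNA genes. Counted by transcript, 16.7% of host gene transcripts began this way, against 2.70% of the transcripts of all tested genes and 4.11% of those of tested lncRNA genes. The exact opening CTTTTC was annotated in 3 host genes (30%) and in 0.720% of tested genes. SNHG15 had no such start among its 10 annotated transcripts, and SNHG7 none among 4. These are matches in an annotation, not starts measured in these cells.

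The libraries held 14722344 to 15669139 reads recovered from the FPKM values (fragments per kilobase of gene length, scaled to library size). SHMT2 was depleted in every siSHMT2 library: it had 2.25, 2.10 and 2.42 FPKM there, against 40.8, 56.3 and 45.1 FPKM in siNC (limma adjusted p = 2.08e-05; exact permutation test of 3 against 3 libraries, two-sided, p = 0.1, the smallest it allows). Stellate and fibroblast markers were present, with 9 of 12 at a mean of at least 1 FPKM, but the retinoid enzyme LRAT was listed at 0 in every library and DES and ACTA2 lay below 1 FPKM. The summed level of the 12 was 1495 to 1718 FPKM in siSHMT2 and 1949 to 2845 FPKM in siNC, and its part in the results on host genes was not tested. Hepatocyte markers had 0 of 6 members at that level (FGB and TTR at 0), endothelial markers 0 of 5 (LYVE1 at 0), macrophage markers 1 of 5 (CD14, with LYZ at 0) and cholangiocyte markers 2 of 4 (SOX9 and KRT7). In bulk RNA, fewer cells of a type and less RNA per cell cannot be told apart. The siNC libraries varied more than the siSHMT2 libraries, with a median SD over genes of 0.105 in siSHMT2 and 0.191 in siNC on the log2(FPKM + 1) scale. The authors' totals behind the FPKM were 0.957 to 1.13 times the recovered reads.

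All 10 host genes were expressed, at means from 3.02 FPKM (SNHG8) to 41.1 FPKM (SNHG6) over the 6 libraries. SNHG6 and SNHG1 (39.8 FPKM) could not be told apart by level, since SNHG6 was above SNHG1 in 3 of 6 libraries. SNHG5 followed at 28.0 FPKM. GAS5 (17.8) and SNHG29 (17.4) overlapped in the same way, and SNHG7 stood at 11.1, SNHG15 at 8.50 and SNHG16 at 5.27 FPKM. The ranges of SNHG7 and SNHG15 met, with SNHG7 above in 5 of 6 libraries, as did those of SNHG15 and SNHG16, with SNHG15 above in 6 of 6. SNHG12 (3.04) and SNHG8 (3.02) again overlapped.

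That order depends on the length by which reads are divided. The table divides by a gene length that covers 100% of the SNHG1, SNHG15 and SNHG8 intervals, introns and snoRNAs included, but 18.0% of the SNHG29 interval and 26.4% of the SNHG6 interval. Divided instead by the median length of the annotated spliced transcripts, SNHG5 came first (351 on that scale), then SNHG1 (211), SNHG29 (160), GAS5 (125) and SNHG6 (91.5). By reads alone SNHG5 was also first, with a mean of 3751, and SNHG12 last, with 208. The 10 genes together took 0.0829%, 0.0844% and 0.0850% of the recovered reads in siSHMT2, against 0.0836%, 0.0871% and 0.0857% in siNC. The 10 genes together thus held a nearly equal share of the recovered reads in both groups, with overlapping values. Of the authors' totals behind the FPKM they took 0.0770%, 0.0749% and 0.0807% in siSHMT2. In siNC those shares were 0.0749%, 0.0910% and 0.0844%, again overlapping but more spread. Genes with many reads, such as SNHG5, weigh most in these sums.

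Against siNC, 2 of the 10 host genes fell in siSHMT2 cells, SNHG15 and SNHG16, and 0 rose (limma on log2(FPKM + 1), Benjamini-Hochberg adjusted p below 0.05 over 10865 tested genes). All 10 had the mean of 1 FPKM needed to be tested. For comparison, 15.9% of all tested genes were called, 9.85% lower and 6.07% higher, and of 700 tested lncRNA genes 15% were called, 9% lower and 6% higher. The share of 2 in 10 is near that background and is no result about the host genes as a group. At an unadjusted p below 0.05, and by voom on recovered reads, the count of higher host genes was also 0. The count of lower host genes was 2 at that unadjusted p and 1 by voom. The median log2 fold change of the 10 was -0.08, against 0.02 over all tested genes and 0.05 over tested lncRNA genes. The groups did not overlap for 4 of the 10, lower for SNHG15 and SNHG16 and higher for SNHG1 and SNHG12, against 36.4% of all tested genes (17.9% higher and 18.6% lower) and 29.4% of tested lncRNA genes (15.1% higher and 14.3% lower).

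**Figure D1:**
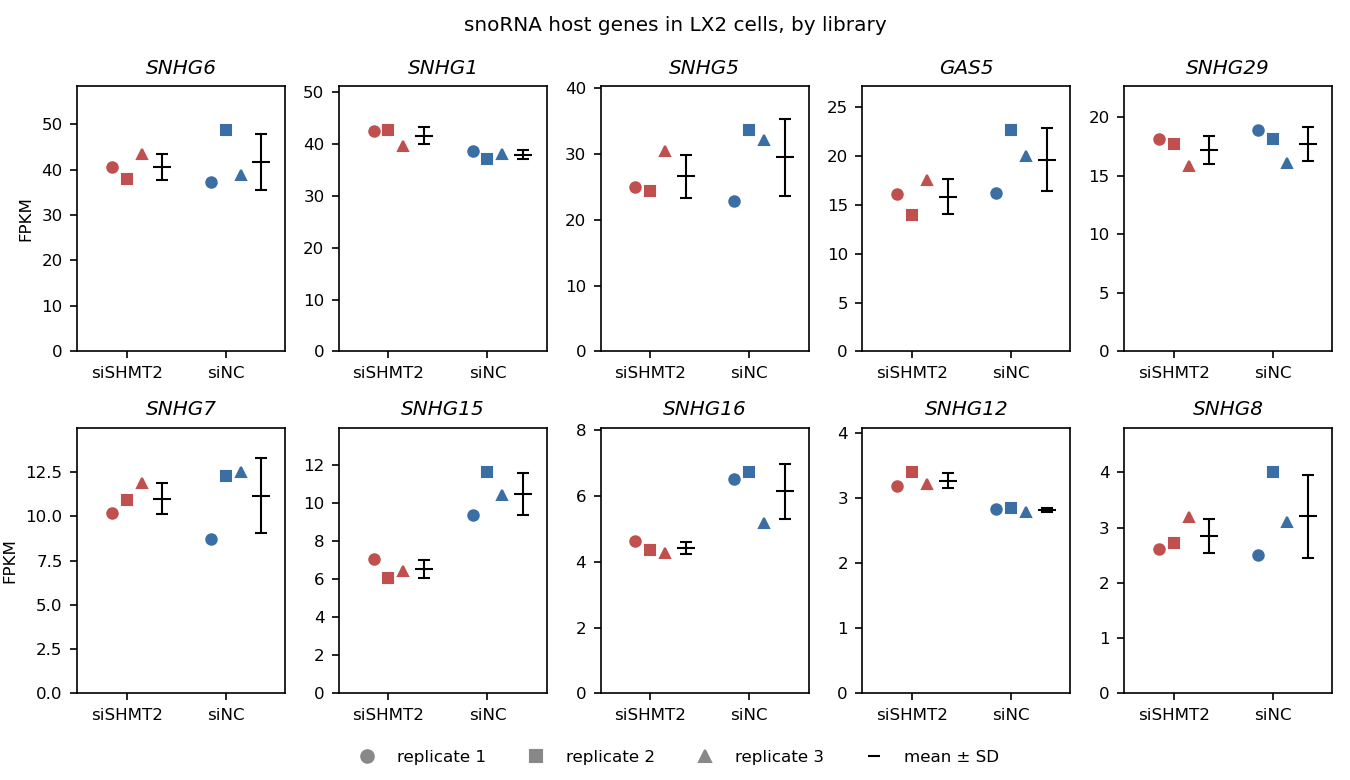
FPKM of each of the 10 host genes (vertical axes, linear from 0) in the 3 siSHMT2 libraries (red, left) and the 3 siNC libraries (blue, right), with symbols for replicate numbers and black marks for the mean ± SD. SNHG15 and SNHG16 lie lower in every siSHMT2 library than in any siNC library, SNHG1 and SNHG12 lie slightly higher, and the other 6 genes overlap.

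Among the H/ACA hosts of the 10, SNHG15 was the one called. SNHG15 (chromosome 7, 44983023 to 44986961, minus strand) carries SNORA9, and its spliced RNA is known as a short-lived transcript. It had 7.05, 6.08 and 6.46 FPKM in siSHMT2 (445, 397 and 402 reads), against 9.39, 11.6 and 10.4 FPKM in siNC (647, 663 and 647 reads). Every siSHMT2 library was thus below every siNC library, and the siSHMT2 mean of 6.53 ± 0.488 was 62.3% of the siNC mean of 10.5 ± 1.12 FPKM (SD, n = 3 each). SNHG15 fell by 0.61 on the log2 scale (SE 0.108, 95% interval -0.86 to -0.36, limma adjusted p = 0.00908). Of all tested genes, 6.73% had a lower fold change. With plain read sums as library totals the groups were also apart, at 7.58, 6.85 and 6.80 FPKM in siSHMT2, against 10.5, 11.1 and 10.6 FPKM in siNC. The log2 fold change was then smaller, at -0.54 (limma adjusted p = 0.0112).

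The other H/ACA hosts of the 10, SNHG12, SNHG7 and SNHG8, did not pass the test. SNHG12 (chromosome 1, 28578538 to 28583132, minus strand) carries SNORA16A, SNORA44, SNORA61 and the C/D box RNA SNORD99. It had 3.19, 3.39 and 3.22 FPKM in siSHMT2 (218, 240 and 217 reads), against 2.83, 2.85 and 2.79 FPKM in siNC (211, 176 and 187 reads). The siSHMT2 values all lay above the siNC values, but the log2 fold change of 0.16 was not called (95% interval -0.05 to 0.36, limma adjusted p = 0.278). In reads the gap was small, with 211 in siNC replicate 1 just under the lowest siSHMT2 library.

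SNHG7 (chromosome 9, 136721366 to 136728184, minus strand), host of SNORA17A and SNORA17B, had 10.2, 10.95 and 11.9 FPKM in siSHMT2, against 8.73, 12.3 and 12.5 FPKM in siNC. SNHG8 (chromosome 4, 118278709 to 118285316, plus strand), host of SNORA24, had 2.61, 2.73 and 3.19 FPKM in siSHMT2, against 2.51, 4.001 and 3.11 FPKM in siNC. In both genes siNC replicate 1 was the lowest siNC library and the groups overlapped. The 95% intervals of the log2 fold change, -0.34 to 0.33 for SNHG7 and -0.45 to 0.22 for SNHG8, leave room for changes of either sign (limma adjusted p = 0.986 and 0.632).

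Among hosts of C/D box snoRNAs, SNHG16 was lower. SNHG16 (chromosome 17, 76557764 to 76565348, plus strand) carries SNORD1A, SNORD1B and SNORD1C and was first described in aggressive neuroblastoma. It had 4.62, 4.35 and 4.26 FPKM in siSHMT2 (397, 387 and 361 reads), against 6.51, 6.72 and 5.19 FPKM in siNC (611, 522 and 438 reads). The groups did not overlap, and siNC replicate 3 was the siNC library closest to the siSHMT2 values. The siSHMT2 mean of 4.41 ± 0.187 was 71.8% of the siNC mean of 6.14 ± 0.830 FPKM (SD, n = 3 each), and SNHG16 fell by 0.39 on the log2 scale (SE 0.111, 95% interval -0.65 to -0.14, limma adjusted p = 0.0497). With library weights its log2 fold change was -0.22 (limma adjusted p = 0.0669). The main value sits at the threshold: the call held under 3 of 17 other settings, with adjusted p from 0.0261 to 0.210, while SNHG15 was called under all 17 (adjusted p from 0.000947 to 0.0471). Leaving out each library in turn, siNC replicate 3 excepted, ended the SNHG16 call, with adjusted p from 0.0897 without siNC replicate 2 to 0.162 without siSHMT2 replicate 3.

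SNHG16 was also the only one of the 10 with an annotated transcript holding GACTTTA, a word of 7 bases searched on the transcript strand alone. The word had been picked earlier on the fold changes of these same libraries, so its presence here is a description. It occurs once, at base 306 of a 556-base transcript, 1 of 8 annotated for the gene, and stands in capitals in the stretch shown.
SNHG16 site: gggggcagggaGACTTTAgtagcattttgt
The word ACTTTAA, which shares 6 bases with it when shifted by 1, was in 0 of the 10, against 30.6% of tested genes and 11.6% of tested lncRNA genes. Over the tested genes in the annotation 22.4% had a transcript with GACTTTA, and over tested lncRNA genes 8.31%. SNHG15 held neither word in its 10 annotated transcripts. Whether either word bears on the level of a host gene was not tested.

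GAS5 (chromosome 1, 173858559 to 173868882, minus strand) is the host of a row of C/D box snoRNAs, and its spliced RNA accumulates in growth-arrested cells and can bind the glucocorticoid receptor. It had 16.1, 14.0 and 17.5 FPKM in siSHMT2 (1249, 1120 and 1343 reads), against 16.2, 22.7 and 20.0 FPKM in siNC (1374, 1590 and 1528 reads). The siNC replicate 1 value lay inside the siSHMT2 range, and the other siNC libraries above it. The siSHMT2 mean was 15.9 ± 1.81 and the siNC mean 19.6 ± 3.24 FPKM (SD, n = 3 each), a log2 fold change of -0.29 that was not called (95% interval -0.62 to 0.05, limma adjusted p = 0.235). It was called with library weights (adjusted p = 0.0331), and in 1 of 17 other settings in all.

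**Figure D2:**
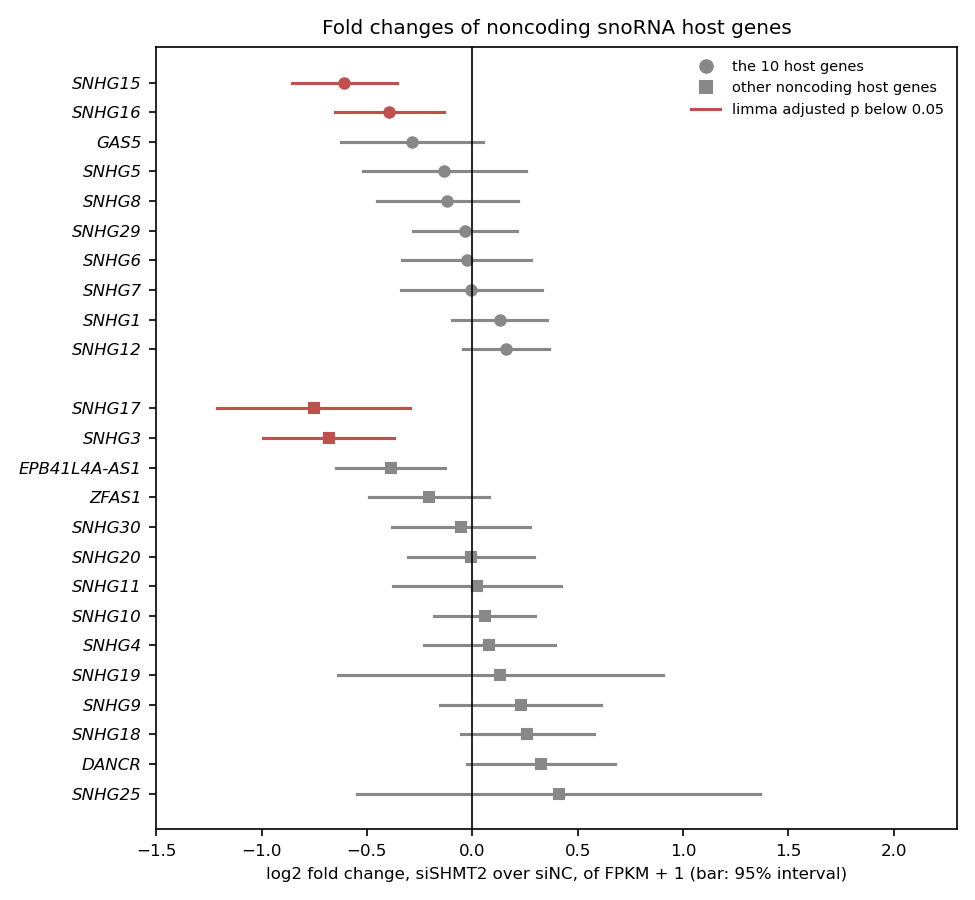
Log2 fold change of FPKM + 1, siSHMT2 over siNC (horizontal axis), with 95% intervals for the 10 host genes (circles) and 14 other tested noncoding host genes (squares). The intervals of SNHG15 and SNHG16 above, and of SNHG17 and SNHG3 below, are drawn in red for an adjusted p under 0.05, and the other genes are grey.

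SNHG1 (chromosome 11, 62851984 to 62855953, minus strand), in which snoRNAs were first found to be hosted by a gene with no protein product, carries C/D box snoRNAs that include SNORD22, SNORD25, SNORD26, SNORD27, SNORD28 and SNORD30. It had 42.5, 42.6 and 39.6 FPKM in siSHMT2, against 38.7, 37.0 and 38.1 FPKM in siNC. The siSHMT2 values were all higher, by a log2 fold change of 0.13 that was not called (95% interval -0.10 to 0.36, limma adjusted p = 0.423). With read sums as library totals the groups overlapped, at 45.8, 47.99 and 41.7 FPKM in siSHMT2 against 43.2, 35.4 and 38.6 FPKM in siNC. Upstream, 148 bases away on the other strand, begins SLC3A2, the heavy chain of the cystine and large neutral amino acid transporters. SLC3A2 lay lower in each siSHMT2 library (108, 93.0 and 113 FPKM) than in any siNC library (123, 250.4 and 164 FPKM), but was not called either (log2 fold change -0.72, limma adjusted p = 0.0893).

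SNHG5 (chromosome 6, 85650491 to 85678932, minus strand), host of SNORD50B, had 24.96, 24.4 and 30.4 FPKM in siSHMT2, against 22.8, 33.6 and 32.1 FPKM in siNC. SNHG6 (chromosome 8, 66921684 to 66926398, minus strand), host of SNORD87, had 40.5, 37.8 and 43.4 FPKM in siSHMT2, against 37.3, 48.7 and 38.8 FPKM in siNC. SNHG29 (chromosome 17, 16438767 to 16478678, plus strand), host of SNORD49A, SNORD49B and SNORD65, had 18.1, 17.7 and 15.8 FPKM in siSHMT2, against 18.9, 18.1 and 16.1 FPKM in siNC. The groups overlapped in all 3 genes and none was called. Their 95% intervals ran from -0.52 to 0.25 for SNHG5, -0.33 to 0.28 for SNHG6 and -0.28 to 0.21 for SNHG29 (limma adjusted p = 0.643, 0.916 and 0.851). SNHG6, SNHG7 and SNHG29 had fold changes near 0 whose sign turned with the scaling, for example to 0.07, 0.09 and 0.05 with values rescaled to TPM, where the median over all tested genes was 0.11.

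Replicate spread differed between the 10 genes. The SD was larger in siNC than in siSHMT2 for 8 of the 10, with SNHG1 and SNHG12 the exceptions. In siNC the coefficient of variation ran from 1.13% (SNHG12) to 23.4% (SNHG8), and in siSHMT2 from 3.40% (SNHG12) to 12.4% (SNHG5). In 6 of the 10 genes the lowest siNC value was that of siNC replicate 1, the library with the largest total behind its FPKM (17495471, against 15669139 recovered reads). With read sums as totals the siNC SD was 0.340 in place of 1.12 FPKM for SNHG15, and 1.81 in place of 3.24 FPKM for GAS5. It also fell for SNHG5, SNHG6, SNHG7 and SNHG8. It rose for SNHG1 (3.88 in place of 0.821 FPKM), SNHG29 (2.49 in place of 1.44), SNHG16 (1.01 in place of 0.830) and SNHG12 (0.225 in place of 0.0319).

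The snoRNAs themselves were almost unread. The table has 26 snoRNA rows inside 9 of the host genes, and 25 of them were listed at 0 reads in every library. The snoRNAs of GAS5 were not analysed here. The exception was SNORD99 within SNHG12, with 6.74, 7.34 and 4.27 FPKM in siSHMT2, against 2.32, 0.933 and 10.3 FPKM in siNC. Those values rest on few reads, 12 in siNC replicate 3, and were not called (limma adjusted p = 0.427). The libraries were made with an mRNA kit, so a 0 here does not show that a snoRNA was absent.

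Other genes overlap the host genes on the genome, and reads there may be shared since the use of strand in counting is not stated. Of 11 overlapping rows that are not snoRNAs, 10 lie on the other strand. The overlap was 8 bases with TRNAU1AP at the 3′ end of SNHG12, and TRNAU1AP was not called (limma adjusted p = 0.382). LRRC75A and AC093484.4, which overlap SNHG29 by 37102 and 474 bases, were not called either (limma adjusted p = 0.802 and 0.729). DIPK1B overlaps SNHG7 by 3377 bases and was below the level for testing, at 0.698, 0.426 and 0.578 FPKM in siSHMT2, against 1.15, 1.75 and 1.14 FPKM in siNC. AC015802.6, which overlaps SNHG16 by 1639 bases, reached at most 0.171 FPKM in any library. Apart from SNORA9, no row overlapped SNHG15.

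Of 26 other noncoding snoRNA host genes listed, 23 were rows of the table and 14 were tested. Of the 14, 2 were lower (14.3%, against 9.85% of all tested genes) and 0 higher (against 6.07%). The count of higher genes was also 0 at an unadjusted p below 0.05, and 1 by voom. The count of lower genes was 3 at that unadjusted p and 2 by voom. A further 3 were listed at 0 in every library. SNHG3, host of the abundant H/ACA RNAs SNORA73A and SNORA73B, had 7.26, 7.10 and 7.38 FPKM in siSHMT2, against 11.3, 15.2 and 10.6 FPKM in siNC, and fell by 0.68 (limma adjusted p = 0.0138). SNHG17 had 3.33, 2.81 and 3.09 FPKM in siSHMT2, against 4.30, 8.42 and 5.46 FPKM in siNC, and fell by 0.75 (limma adjusted p = 0.0385). In both genes siNC replicate 2 was the highest library. Leaving out siSHMT2 replicate 1, 2 or 3 ended the SNHG3 call (limma adjusted p = 0.0614, 0.0572 and 0.0524), and leaving out any of these or siNC replicate 3 ended the SNHG17 call (0.0976, 0.124, 0.104 and 0.0791). EPB41L4A-AS1 was at 5.41 ± 0.304 FPKM in siSHMT2 and 7.42 ± 0.9996 FPKM in siNC and just missed the threshold (adjusted p = 0.0540), while DANCR was at 49.0 ± 2.07 FPKM in siSHMT2 and 39.3 ± 7.32 FPKM in siNC (adjusted p = 0.195; limma, SD, n = 3 each). The median log2 fold change of the 14 was 0.04.

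Protein-coding snoRNA hosts and other TOP genes showed few calls by limma. Of 46 tested coding hosts, 2 were lower (4.35%) and 0 higher, with a median of -0.11. Over all tested genes 9.85% were lower and 6.07% higher. At an unadjusted p below 0.05, 6 coding hosts were lower and 0 higher. By voom 4 were lower and 0 higher, where 853 of the 10865 tested genes were lower and 914 higher. The 2 genes called lower by limma were CWF19L1 and TPT1, the translationally controlled tumour protein. CWF19L1 had 6.32 ± 0.772 FPKM in siSHMT2 and 9.73 ± 1.42 FPKM in siNC (SD, n = 3 each). TPT1 had 144 ± 7.46 FPKM in siSHMT2 and 209 ± 27.6 FPKM in siNC (SD, n = 3 each). TPT1 was also the only one of 12 tested TOP translation factors to be called (limma adjusted p = 0.0381). Leaving out siSHMT2 replicate 1, 2 or 3 or siNC replicate 3 ended the TPT1 call (0.141, 0.152, 0.118 and 0.0658). Leaving out siSHMT2 replicate 1 or 2 or siNC replicate 2 or 3 ended the CWF19L1 call (0.118, 0.110, 0.0586 and 0.0810). The snoRNP core protein and SNORD host NOP56 had 63.9 ± 3.84 FPKM in siSHMT2 and 88.9 ± 12.5 FPKM in siNC (limma adjusted p = 0.0549, SD, n = 3 each). Cytosolic ribosomal protein genes and their paralogs had 1 of 81 higher and 2 lower, with a median of -0.08. The higher one was the paralog RPL26L1 (log2 fold change 1.34), and RPL19 and RPL22 fell by 0.98 and 0.69 (limma adjusted p = 0.000359, 0.0138 and 0.0369). The RPL19 call ended when siSHMT2 replicate 1 or 2 was left out (0.0583 and 0.0687), and the RPL22 call when siSHMT2 replicate 1 or 2 or siNC replicate 2 or 3 was (0.140, 0.131, 0.0743 and 0.105). Ribosomal protein genes have many near-identical pseudogenes, so their reads may be split between rows.

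Factors of nonsense-mediated decay, the pathway that removes many host RNAs, had 0 of 20 tested members called by limma, against 15.9% of all tested genes. Their median was -0.08, though 2 were higher at an unadjusted p below 0.05 and 2 were called higher by voom. RNPS1, a component of the exon junction complex, came nearest (39.6 ± 0.449 FPKM in siSHMT2 and 31.7 ± 1.94 FPKM in siNC, limma adjusted p = 0.0706, SD, n = 3 each). Of 13 coding genes known as targets of the pathway, 5 were lower and 0 higher, with a median of -0.40, where 9.85% of all tested genes were lower. By voom 2 were lower and 1 higher, and at an unadjusted p below 0.05 in limma 8 were lower and 1 higher. GADD45B, a stress-response gene, fell by 0.996, and the splicing factors SRSF6, SRSF3 and SRSF2 and the gene RSRC2 fell by 0.73, 0.48, 0.50 and 0.47 (limma adjusted p = 0.000841, 0.00898, 0.0326, 0.0471 and 0.0293). For the splicing factors only some isoforms are targets, and gene totals do not separate them. GADD45B was called under all 17 other settings. SRSF6 was called whichever library was left out but not with TPM (adjusted p = 0.0520), where SRSF3, SRSF2 and RSRC2 were not called either (0.116, 0.205 and 0.178). Leaving out any siSHMT2 library ended the calls of SRSF3 (adjusted p up to 0.151), SRSF2 (up to 0.180) and RSRC2 (up to 0.118), and leaving out siNC replicate 1 or 3 those of SRSF2 (0.0683 and 0.0951) and RSRC2 (0.0561 and 0.0537).

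Among 19 tested snoRNP proteins and assembly factors, 3 were higher (15.8%, against 6.07% of all tested genes) and 1 lower (5.26%, against 9.85%). Their median was -0.02. NOLC1, the nucleolar chaperone of snoRNPs, had 10.6 ± 0.120 FPKM in siSHMT2 and 4.75 ± 0.185 FPKM in siNC (SD, n = 3 each), and rose by 1.01 (limma adjusted p = 0.000421). TCOF1, the nucleolar partner of NOLC1, and SHQ1, an early H/ACA assembly factor, rose by 0.44 and 0.48, and RPAP3, a cochaperone subunit of the C/D assembly machinery, fell by 0.41 (limma adjusted p = 0.0457, 0.0361 and 0.0490). The NOLC1 call held whichever library was left out. Leaving out any siSHMT2 library ended the other calls, with adjusted p up to 0.158 for TCOF1, 0.133 for SHQ1 and 0.166 for RPAP3. They also ended without siNC replicate 1 (TCOF1 0.0832, RPAP3 0.0782), siNC replicate 2 (SHQ1 0.0586, RPAP3 0.0684) or siNC replicate 3 (TCOF1 0.119, SHQ1 0.0868). In the mTOR and LARP1 list 1 of 12 tested genes was higher (8.33%, against 6.07% of all tested genes). It was LARP1 itself, the protein that binds TOP tracts. LARP1 had 22.5 ± 1.54 FPKM in siSHMT2 and 14.7 ± 2.45 FPKM in siNC (SD, n = 3 each), and rose by 0.59 (limma adjusted p = 0.0247). Its call ended when siSHMT2 replicate 1, 2 or 3 was left out (0.0838, 0.0996 and 0.0773).

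**Figure D3:**
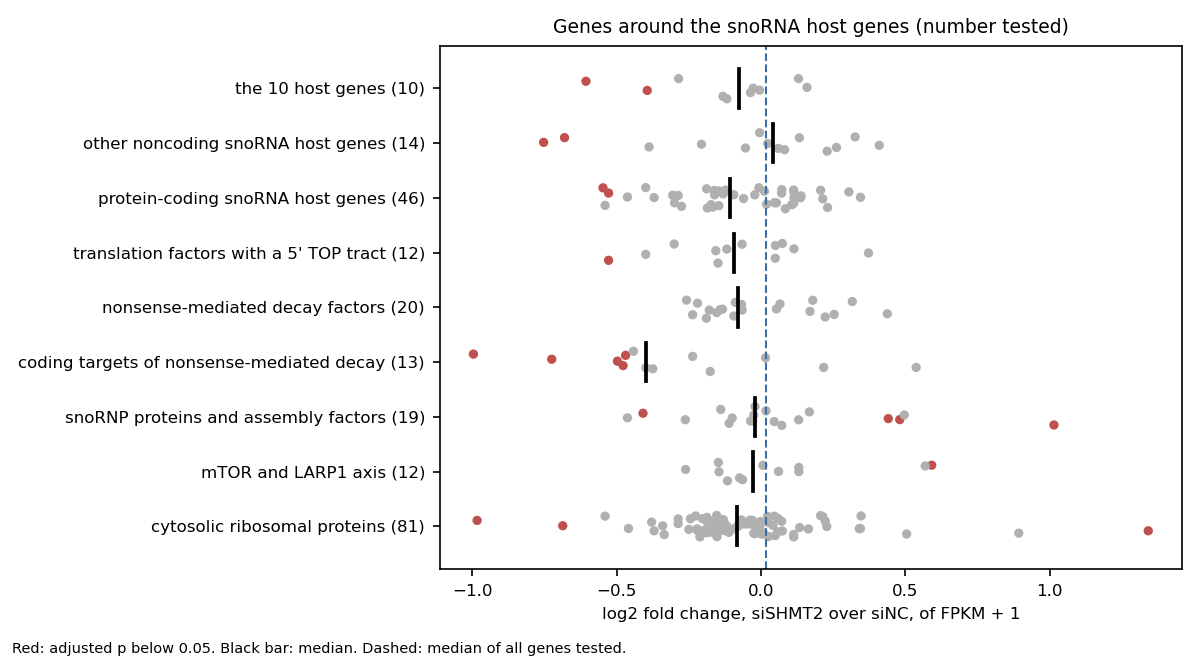
Log2 fold change of FPKM + 1, siSHMT2 over siNC (horizontal axis), of each tested gene in the 10 host genes and in 8 lists around them, with the number tested in parentheses. Red points have an adjusted p under 0.05, black bars are list medians, and the dashed line at 0.02 is the median of all tested genes; the decay targets have the lowest median, -0.40, and the other lists lie between -0.11 and 0.04.

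By profile over the 6 libraries, SNHG15 lay nearest to SNHG16 among the other 9 host genes (root-mean-square difference of centred log2 values 0.165), then to GAS5 (0.187), and farthest from SNHG12 (0.398). The nearest of all other tested genes were TMEM204, MOK and H2AFX, at 0.0405, 0.0415 and 0.0501, against a median of 0.369 over all tested genes. For SNHG6, the host gene with the highest FPKM, the nearest were POLE, PHLDB3 and VGLL4, at 0.0385, 0.0395 and 0.0397, and among host genes SNHG8, at 0.0819. The profiles share libraries and their scaling, so nearness describes these libraries alone.

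**Figure D4:**
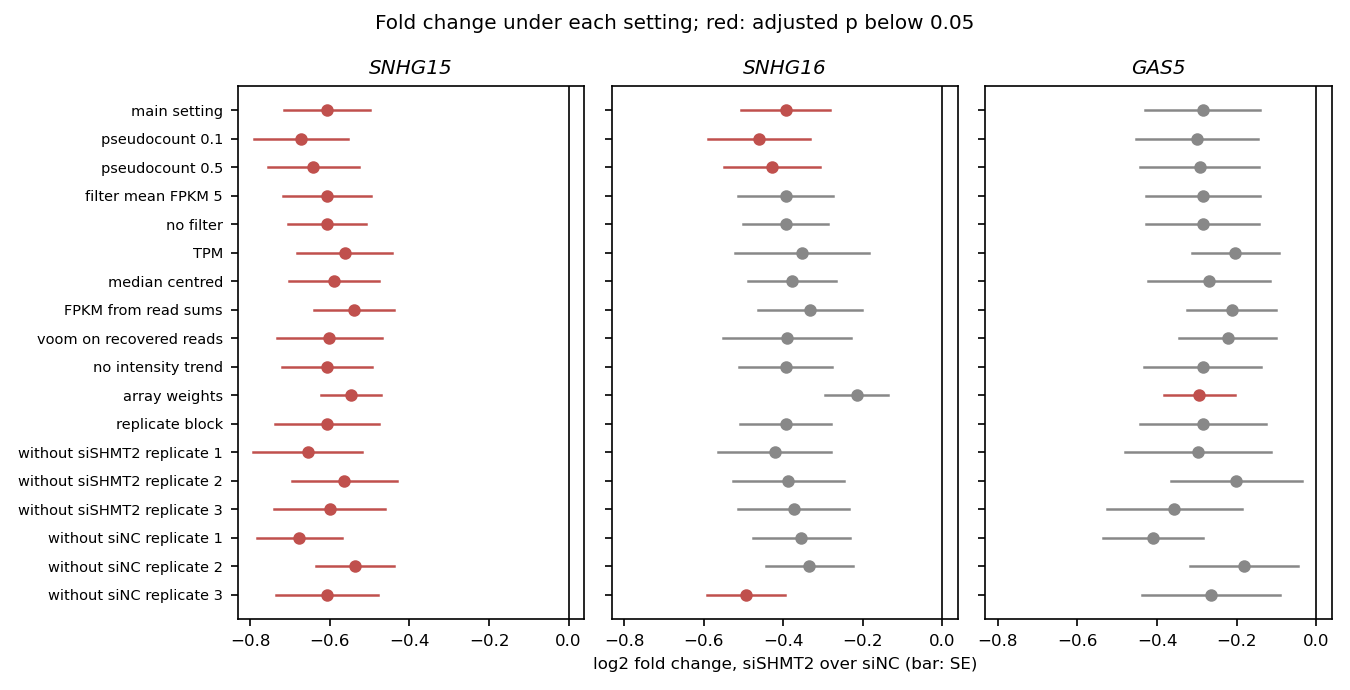
Log2 fold change, siSHMT2 over siNC (horizontal axis, bars SE), of SNHG15, SNHG16 and GAS5 under the main setting and 17 others (rows), red where the adjusted p was under 0.05. SNHG15 stays red throughout, between -0.68 and -0.54, SNHG16 is red in 3 of the 17 others and GAS5 in 1.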

How the data were processed

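Per the submitters' processing notes, reads were processed with HISAT2 2.0.5 and featureCounts 1.5.0-p3 on hg18. The authors deposited 1 table of FPKM values. Its coordinates overlap GENCODE release 29 (GRCh38) for 10 of 10 host genes, with identical ends for 4, and are given as in the table. They are therefore read as GRCh38, although the notes name hg18. Strand use and the rule for reads over several genes are not given in the sources used here. FPKM times length gave whole reads for 100% of values above 0 (within 0.02). The main test was limma 3.58.1 (R 4.3.3) on log2(FPKM + 1), with an intensity trend, over genes with a mean of at least 1 FPKM, Benjamini-Hochberg adjusted, threshold 0.05. Intervals are at 95%. Fold changes on this scale understate changes of low genes. The fit was tested on simulated data. Lists and sequences were handled in Python 3.11.15. The members, lists and tests were chosen with earlier results of these data known. The naming rule took all members, SHMT2, overlapping rows, up to 4 leading genes per list and the 3 nearest profiles. SRSF2 was named beyond that rule, so that all 5 called genes of the decay-target list are given. SLC3A2, the neighbour of SNHG1, was added after its values were seen. One overlapping row is not reported here. The labels do not say that equal replicate numbers mark a shared batch, so numbers were not treated as pairs. Deviations of same-numbered libraries from their group means had correlations across genes of -0.02, -0.35 and 0.24 for numbers 1 to 3. Between unlike numbers the correlations ran from -0.48 to 0.50, so these values cannot show whether a batch was shared. Alternatives are listed in the closing section.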

Additional observations from a re-analysis of the deposited data

How the results depend on the processing

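The 17 other settings covered the pseudocount, the filter, scaling, voom on recovered reads, moderation, library weights, a replicate block and leaving out each library. SNHG15 and SHMT2 kept direction and call in all of them. The count of host genes called higher was 0 throughout; the count called lower was 1 with a mean FPKM of at least 5, no filter, TPM, median centring, FPKM from read sums, voom, no intensity trend or the replicate block, and 1 to 2 without single libraries. SNHG6 turned to 0.0658 (TPM), 0.0491 (read sums), 0.0509 (voom) and 0.0413 (library weights), SNHG29 to 0.0540, 0.0370, 0.0390 and 0.0946 in that order, and SNHG7 to 0.0870 (TPM), 0.0113 (median centring), 0.0674 (read sums) and 0.0741 (voom). Without single libraries SNHG6 ran from -0.0994 to 0.0885, SNHG29 from -0.0999 to 0.0183, SNHG7 from -0.158 to 0.0776 and SNHG8 from -0.242 to 0.0141. Over all tested genes, 659 were higher and 1070 lower. The counts were 333 and 603 with no filter, 1827 and 1976 with library weights, and 374 and 696 with the replicate block; 618 were lower at a mean FPKM of at least 5 and 620 with TPM. Without single libraries 229 to 729 were higher and 498 to 1132 lower. Lower genes made up 61.9% of all calls, against 47.5% with TPM (686 higher, 620 lower), 49.1% with read sums (796, 767), 48.3% with voom (914, 853) and 52.0% with library weights. The median log2 fold change over tested genes was 0.11 with TPM and 0.10 with voom. Under the replicate block SNHG16 had an adjusted p of 0.0867. The causes were not tested.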
